A study of Homo sapiens with 6 samples.

Results

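The lysosomal genes described here were those of the vacuolar proton pump (V-ATPase), the cathepsins and the lysosome-associated membrane proteins (LAMPs). They were chosen by symbol: every gene of the table whose symbol begins with ATP6V0 or ATP6V1, is CTS followed by a single letter, or is ATP6AP1, ATP6AP2, LAMP1, LAMP2 or LAMP3, with antisense genes and pseudogenes left out. This rule found 41 of 19792 genes, namely 24 V-ATPase genes, 14 cathepsins and 3 LAMPs. CTSG, ATP6V1FNB and the readthrough gene ATP6V1G2-DDX39B were not analysed here.

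The cells were BT-549, a human triple-negative breast cancer line, carrying a tetracycline-inducible short hairpin RNA against WDR5 (BT-549/tet-WDR5shRNA) and, per the labels, puromycin resistance. WDR5 is a core subunit of the COMPASS complexes, which methylate histone H3 at lysine 4. Vehicle (0.1% DMSO) was given to 3 cultures and 500 ng/ml doxycycline (DOX), which switches on the hairpin, to 3, for 7 days. All 6 carried the hairpin construct, so a control hairpin with DOX was not part of these samples. RNA of bulk cultures was sequenced from stranded mRNA libraries.

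The values used are the mean normalized count of each gene over all 6 libraries, as the authors pooled them. Vehicle and DOX libraries entered the same mean, so a level below is the average of both conditions and carries no SD, and no test could be run on it. The effect of DOX on these genes was therefore not analysed here, and WDR5 itself, with a mean normalized count of 1143, could not be checked library by library. The 19792 means summed to 26551206, and the depth of each library is unknown. Because RNA was taken from bulk cultures, fewer cells expressing a gene and less RNA per cell cannot be told apart.

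The labelled line was checked against its markers, and the mesenchymal markers were high while ESR1, PGR and EPCAM were near 0. The mesenchymal genes VIM, FN1, SPARC and CDH2 had mean normalized counts of 47782, 30461, 19657 and 4093. The receptors ESR1 and PGR were at 0.790 and 0.801, whereas ERBB2 was at 1221. The epithelial genes EPCAM and CDH1 were at 1.30 and 59.6. Among markers of other cells, PTPRC of leukocytes was at 44.7, PECAM1 of endothelium at 2.86, and the macrophage genes CD14 and LYZ at 24.02 and 0.316. CD68, at 1813, encodes a lysosomal protein that is also used as a macrophage marker, and the osteoclast genes ACP5 and CALCR were at 0.736 and 2.13.

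Lysosomes degrade proteins, lipids and sugars delivered by endocytosis and autophagy, and they do so at an acidic pH that the V-ATPase maintains. The pump has a membrane sector, V0, through which protons pass, and a cytosolic sector, V1, which hydrolyses ATP and turns a central rotor. Cathepsins are proteases of the lysosome, most of them cysteine proteases active in acid, and LAMP1 and LAMP2 are heavily glycosylated proteins that make up much of the lysosomal membrane. Many lysosomal genes carry near their start site an element with the core CACGTG, which the transcription factors TFEB and TFE3 bind.

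The promoter stretches that hold this core are shown first, since some genes of the pump, some of the proteases and LAMP1 have it. Promoters of 300 bases, from 250 bases before to 50 after the start site, were taken from RefSeq (GRCh38.p14) and were matched for 27 of the 41 genes. Where a gene had several listed promoters, such as ATP6V0E2 with 3, only the first listed was searched. The genes with no entry were ATP6V0D2, ATP6V0E1, ATP6V1A, ATP6V1B2, ATP6V1C1, ATP6V1E2, ATP6V1H, CTSB, CTSK, CTSO, CTSS, CTSW, LAMP2 and LAMP3. CACGTG, which reads the same on both strands, was found in 8 of the 27. In each stretch below the capitals mark CACGTG, in lower case are the neighbouring bases, and the letters run 5′ to 3′ along the gene.
ATP6V0B, chr1:43974891-43974938, plus strand: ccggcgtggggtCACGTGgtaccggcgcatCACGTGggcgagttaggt
ATP6V0D1, chr16:67481199-67481228, minus strand: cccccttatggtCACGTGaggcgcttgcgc
ATP6V0E2, chr7:149872884-149872913, plus strand: tcccttctgcatCACGTGgggactgcgcct
ATP6V1G1, chr9:114587699-114587728, plus strand: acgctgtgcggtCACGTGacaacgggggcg
CTSD, chr11:1763957-1763986, minus strand: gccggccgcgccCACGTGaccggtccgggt
CTSA, chr20:45891290-45891318, plus strand: tgtCACGTGgcgccggagttCACGTGact
CTSF, chr11:66568640-66568741, minus strand: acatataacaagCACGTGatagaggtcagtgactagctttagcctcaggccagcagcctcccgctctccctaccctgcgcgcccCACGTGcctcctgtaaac
LAMP1, chr13:113297035-113297243, plus strand: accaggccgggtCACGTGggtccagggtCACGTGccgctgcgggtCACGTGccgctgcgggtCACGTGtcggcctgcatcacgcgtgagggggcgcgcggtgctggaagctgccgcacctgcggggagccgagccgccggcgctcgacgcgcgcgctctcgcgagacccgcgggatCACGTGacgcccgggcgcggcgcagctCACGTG

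The LAMP1 promoter held 6 copies of CACGTG, which began at bases 59, 75, 92, 109, 223 and 250 of the window, so that the last of them ran across the start site at base 251. The promoters of ATP6V0B, CTSA and CTSF held 2 copies each, and those of ATP6V0D1, ATP6V0E2, ATP6V1G1 and CTSD held 1 each. Outside CTSF and LAMP1, all copies began between bases 179 and 226. By family, 4 of 17 matched V-ATPase promoters, 3 of 9 cathepsin promoters and the LAMP1 promoter carried it. In the GENCODE 44 annotation the CTSA stretch lay wholly in annotated exon sequence, and 23 of the 30 bases of the ATP6V1G1 stretch lay in its first exon. The stretches of CTSF, CTSD and LAMP1 held 24, 8 and 5 exon bases, and those of ATP6V0B, ATP6V0D1 and ATP6V0E2 touched no exon. Of the 27305 promoters taken in this way, each from a different gene, 7.43% held CACGTG, and of the 13606 whose gene had a row here, 9.29% did. The match covered 65.9% of the genes, under the 80% required for a check over a whole set, so the comparison of these shares is void as a statement on all 41. TATAAA, the other motif searched on both strands, was found in 1 of the 27, ATP6V1G3. It was in 11.95% of the 27305 promoters and in 7.45% of the 13606 whose gene had a row. A match is a description of letters in a window, and no binding was measured here.

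Of the 41 genes, 35 (85.4%) averaged at least 10 normalized counts, against 68.5% of all 19792 genes. Their median mean normalized count was 2027, against 187 for all genes. Together the 41 held 381668 of the normalized counts, or 1.44% of the total. The cathepsins held 1.07%, the V-ATPase genes 0.209% and the LAMPs 0.160%. The 6 genes under 10 were ATP6V0A4, ATP6V0D2, ATP6V1B1, ATP6V1G3, CTSE and CTSW, with mean normalized counts from 0.350 to 4.92. They encode forms of the pump or proteases known mainly from other tissues, such as kidney for ATP6V0A4 and ATP6V1B1, stomach for CTSE and cytotoxic lymphocytes for CTSW.

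**Figure D1:**
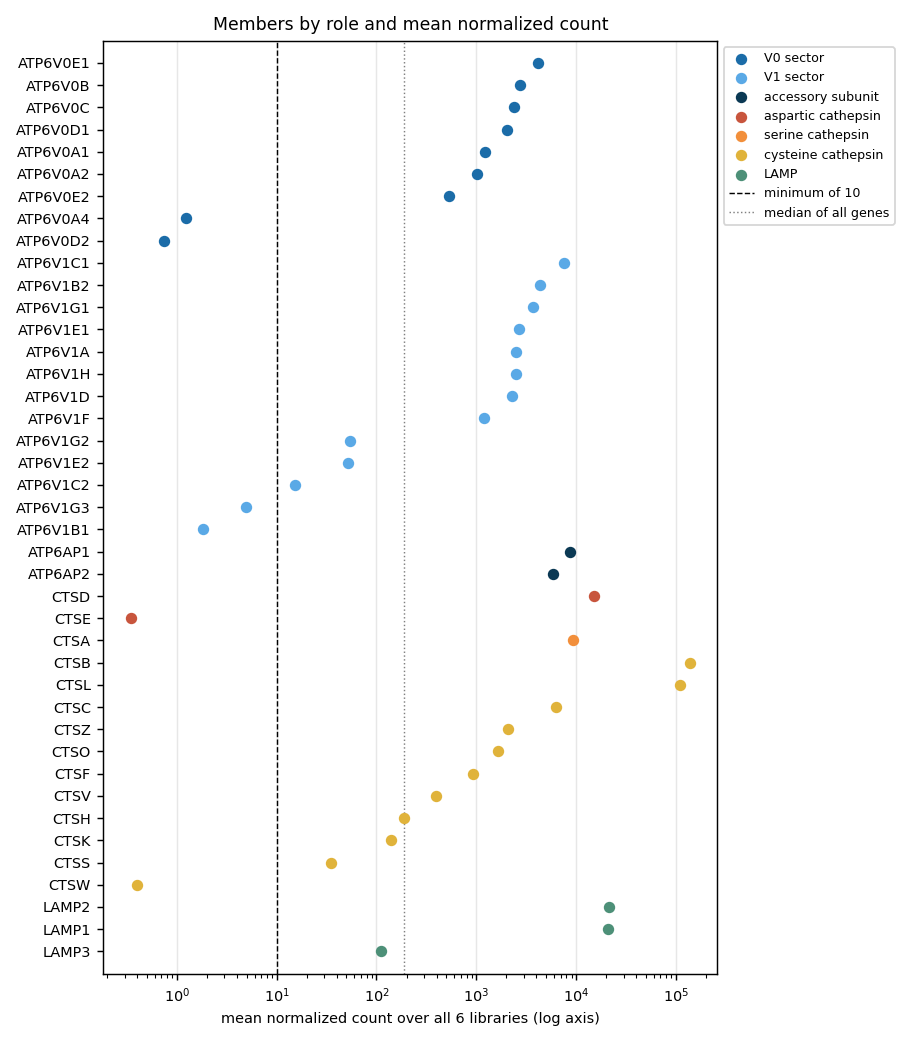
Each point is the authors' mean normalized count of a gene over all 6 libraries (log axis), coloured by role; the dashed line marks 10 and the dotted line the median of all genes, 187. CTSB at 136899.7 and CTSL at 110855 lie farthest to the right, and 6 genes lie under 10.

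Counts rise with the length of a transcript, and the ranks and comparisons of counts given here are not corrected for it. A level divided by length was therefore used as well. The per-length level is the mean normalized count divided by the length of the gene, scaled so that all 18309 genes with a length sum to 1000000, and its unit is written ppm. Length was the union of all annotated exons in GENCODE 44, and gene positions below are from the same annotation (GRCh38). Since this union is long where an annotation holds retained introns, the level with the canonical transcript alone is given beside it. On the per-length scale the V-ATPase genes held 0.264% of the total (0.287% with canonical transcripts), the cathepsins 0.649% (1.21%) and the LAMPs 0.103% (0.110%). Of the 41 genes, 14 lay at or above percentile 90 of all genes by union length and 21 by canonical transcript.

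Within the V0 sector, the proteolipid ring that carries protons is built from ATP6V0C (subunit c) and ATP6V0B (subunit c″). Their per-length levels were 308 ppm and 153 ppm by union length, and 218 ppm and 274 ppm by canonical transcript, so the order of these genes turned with the length used. ATP6V0C, at chr16:2513952-2520218 on the plus strand, had a mean normalized count of 2404, and 94.2% of the 50-base words of its transcript also occur in the readthrough genes ENSG00000260272 and ENSG00000259784, so its count is uncertain. ATP6V0E1, a small membrane subunit at chr5:172983771-173035445 on the plus strand, had the highest V0 level under either length, 464 ppm by union and 288 ppm by canonical transcript. ATP6V0D1, which couples the ring to the central stalk, was at 45.1 ppm and 123 ppm. Its mean normalized count was 2027.

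Subunit a forms the channel through which protons enter and leave the ring, and its isoforms direct the pump to different membranes. ATP6V0A1 was at 17.0 ppm (29.3 ppm by canonical transcript) and ATP6V0A2 at 10.6 ppm (15.4 ppm), with mean normalized counts of 1213 and 1008. Of the summed level of the ATP6V0A genes, ATP6V0A1 held 61.4%, ATP6V0A2 38.4% and the kidney form ATP6V0A4 0.198%. With the longest transcript as the length, ATP6V0A2 was the higher of the pair. The a3 gene TCIRG1, which the symbol rule leaves out and which osteoclasts use, had a mean normalized count of 819 and a level of 32.3 ppm (30.5 ppm by canonical transcript), above both under either length. Once TCIRG1 is counted in subunit a, it held 53.8% of the level by union length and 40.5% by canonical transcript, and ATP6V0A1 held 28.4% and 39.0%. By count alone ATP6V0A1 led these genes. RNASEK, the gene of subunit f, was at 19.6 normalized counts, but 98.0% of its 50-base words occur in the readthrough gene RNASEK-C17orf49.

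In the V1 sector, ATP6V1A and ATP6V1B2 encode the A and B subunits, whose alternating ring binds and hydrolyses ATP. Their mean normalized counts were 2522 and 4300. Their per-length levels were 72.3 ppm and 100.1 ppm by union, and 54.7 ppm and 149.5 ppm by canonical transcript. The ratio of ATP6V1A to ATP6V1B2 was 0.722 by union length, 0.885 by longest transcript and 0.366 by canonical transcript, below 1 each time, for subunits that stand in equal number in the assembled ring.

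The rotor stalk is made of subunits D and F. ATP6V1D was at 97.1 ppm (141 ppm by canonical transcript) and ATP6V1F, whose transcript is short, at 287 ppm (176 ppm). The ATP6V1F count, 1203, was lower than the ATP6V1D count of 2273, and the order turned once length was taken into account. The outer stalks are pairs of subunits E and G. ATP6V1E1, at chr22:17592136-17628749 on the minus strand, was at 154 ppm (198 ppm), and ATP6V1G1, at chr9:114587706-114598915 on the plus strand, at 194 ppm (234 ppm). Their ratio was 0.794 by union length, 0.847 by canonical transcript and 1.15 by longest transcript.

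ATP6V1C1, the subunit that joins the outer stalks to the membrane sector, had the highest count of the V1 genes, 7575. Its level was 235 ppm by union length and 134 ppm by canonical transcript. ATP6V1H, which holds V1 and V0 together and regulates the pump, was at 89.6 ppm (118 ppm) with a mean normalized count of 2520.3. Among the genes the symbol rule kept, the leading gene of each V0 and V1 subunit apart from subunit a lay between 45.1 ppm and 464 ppm by union length.

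A single gene supplied nearly all of the level of 6 of the 7 subunits for which the symbol rule kept several genes. By union length ATP6V0D1 held 99.9% of subunit d, ATP6V1B2 99.9% of subunit B, ATP6V1C1 99.7% of subunit C, ATP6V1E1 98.8% of subunit E, ATP6V1G1 97.1% of subunit G and ATP6V0E1 97.0% of subunit e. The share of ATP6V0E1 was 90.3% by canonical transcript. Among the minor forms, ATP6V0E2 was the highest, with 534 normalized counts and 14.3 ppm. ATP6V1G2, known from neurons, had 54.3 normalized counts, ATP6V1E2, known from testis, 52.3 and ATP6V1C2 15.3. Of the transcript of ATP6V1G2, 14.8% of the 50-base words occur in its readthrough with DDX39B. For ATP6V1B1, at 1.85 normalized counts, 87.7% of the words are shared with VAX2, and for ATP6V1E1 10.0% with its pseudogenes.

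**Figure D2:**
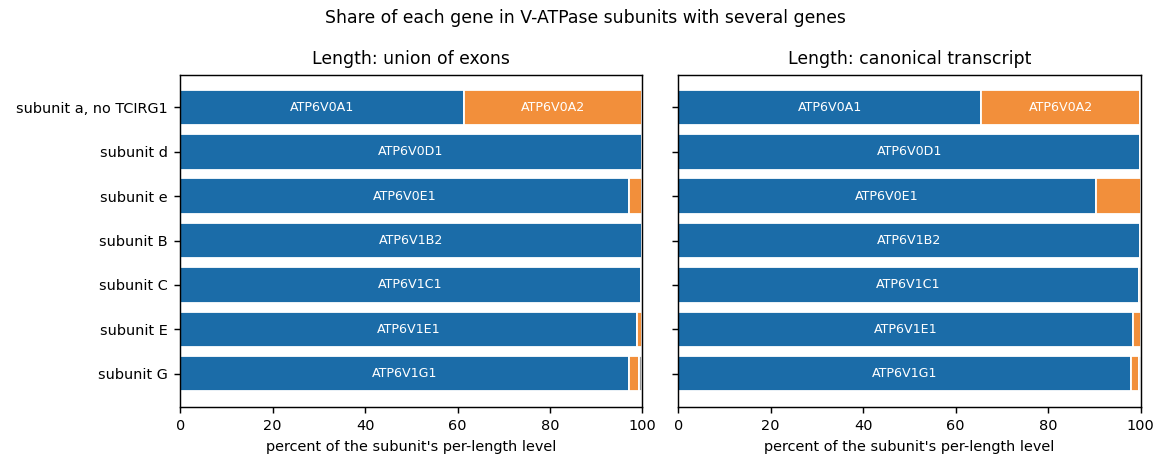
Bars give the percent of each subunit's per-length level held by its genes, with length as the union of exons (left) or the canonical transcript (right); blue is the leading gene, orange and grey the next. Subunit a is drawn without TCIRG1, and among the ATP6V0A genes ATP6V0A1 holds 61.4% (left) and 65.6% (right); with TCIRG1 counted these become 28.4% and 39.0%.

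The accessory subunits are membrane proteins that take part in assembly of the pump. ATP6AP1 (chrX:154428633-154436516, plus strand) had the highest count of all 24 V-ATPase genes, 8610.2, and ATP6AP2, also known as the prorenin receptor (chrX:40579372-40606848, plus strand), had 5929. Per length they were at 275 ppm and 113 ppm, and by canonical transcript at 416 ppm and 263 ppm. ATP6AP1 was above ATP6AP2 under each length, by a ratio of 1.16 to 2.44.

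Cathepsin levels spanned a far wider range than those of the pump. CTSB, a cysteine protease with both endopeptidase and exopeptidase activity, had a mean normalized count of 136899.7, the 6th highest of all 19792 genes. CTSL (chr9:87724051-87731469, plus strand), a broad endopeptidase of the same family, had 110855, the 8th highest. Per length the order turned: CTSL was at 3291 ppm, in rank 14 of 18309 genes, and CTSB at 2360 ppm, in rank 25. By canonical transcript they were at 6657 ppm and 3643 ppm, in ranks 5 and 17. The longest transcript as the length placed CTSB above CTSL, with a ratio of 1.36. Which of the pair led was therefore not settled by these data, whereas both stood above each other cathepsin by every length used.

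The aspartic cathepsin CTSD (chr11:1752752-1764573, minus strand), a major lysosomal endopeptidase, came next with 15138 normalized counts and 482 ppm (732 ppm by canonical transcript). Of its 50-base words, 61.3% also occur in the readthrough gene ENSG00000250644. The serine carboxypeptidase CTSA, which also protects beta-galactosidase and neuraminidase in the lysosome, had 9368 normalized counts and 197 ppm (501 ppm). CTSL, CTSB, CTSD and CTSA together held 97.6% of the summed cathepsin level. CTSE, the other aspartic cathepsin, was at 0.350 normalized counts.

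Among the remaining cysteine cathepsins, CTSC, which activates granule proteases of immune cells, had 6253 normalized counts. Its level was 45.7 ppm by union length and 332 ppm by canonical transcript, because the union of its annotated exons is 24849 bases. CTSZ, a carboxypeptidase, differed likewise, with 2057 normalized counts, 19.3 ppm and 136 ppm. For CTSZ, 31.7% of the exon bases also overlap exons of NELFCD on the opposite strand, and whether the counting used strand is not given in the sources used here. The same limit holds for other genes, with an opposite-strand overlap of 29.8% for ATP6V1C2, 23.4% for CTSD, 21.5% for CTSA and 20.6% for ATP6V1F. CTSO was at 37.6 ppm (56.0 ppm) and CTSF at 39.6 ppm (45.0 ppm).

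CTSV, CTSH, CTSK and CTSS were lower than the cysteine cathepsins above, though the counts of CTSV and CTSH were not below the all-gene median of 187. CTSV, a close relative of CTSL known from thymus and skin, had 392 normalized counts, and CTSL exceeded it 339-fold by union length, 277-fold by longest transcript and 746-fold by canonical transcript. CTSH, an aminopeptidase, had 189, CTSK, the collagen-degrading enzyme of osteoclasts, 139, and CTSS, which processes antigens in antigen-presenting cells, 35.4. Their per-length levels ran from 0.932 ppm for CTSS to 9.70 ppm for CTSV. CTSW was at 0.399 normalized counts.

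**Figure D3:**
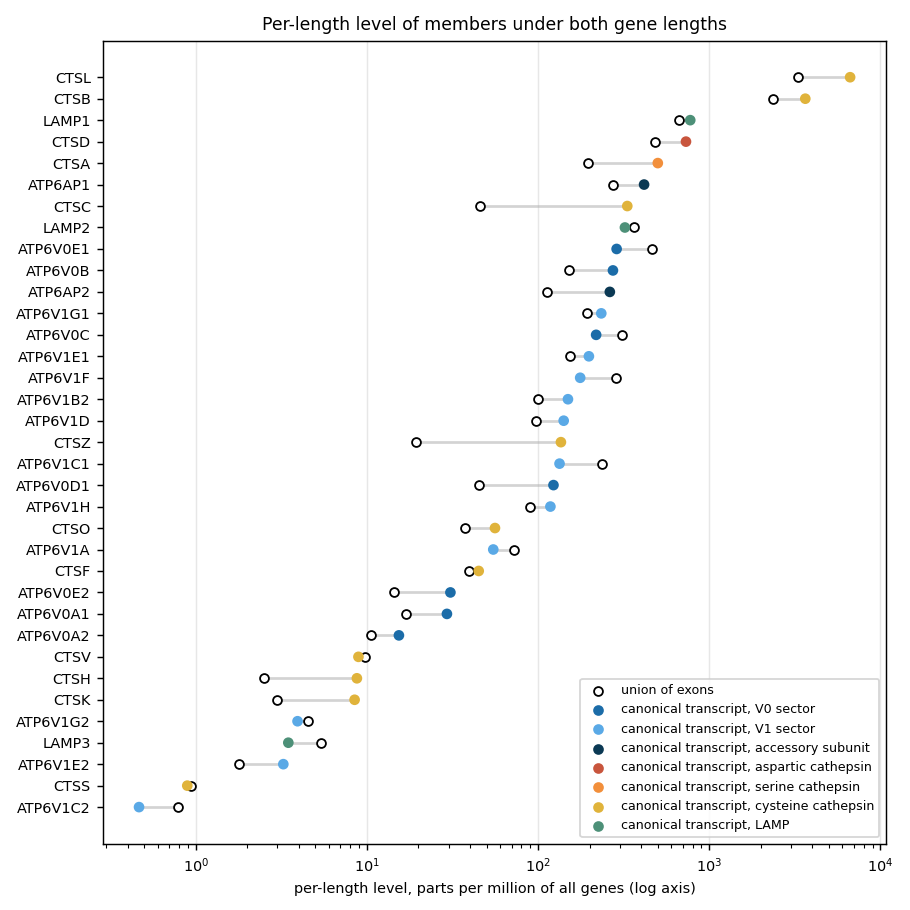
Open circles give the per-length level with the union of exons and coloured circles that with the canonical transcript, in ppm of all genes (log axis), for the 35 genes that averaged 10 or more normalized counts. CTSL and CTSB stand apart at the top under both lengths, and CTSC and CTSZ move the most between them.

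LAMP1 (chr13:113297239-113323672, plus strand) and LAMP2 (chrX:120426148-120469365, minus strand) had nearly the same count, 21070.3 and 21173. These were the 113th and 112th highest of all genes. Per length LAMP1 was above LAMP2, at 666 ppm against 362 ppm by union and 775 ppm against 322 ppm by canonical transcript. The ratio was 1.24 by longest transcript, 1.84 by union and 2.41 by canonical transcript. LAMP2 is spliced into forms that differ in their tail, among them the receptor of chaperone-mediated autophagy, and the table gives their sum. LAMP3, known from mature dendritic cells and lung, had 112 normalized counts and 5.36 ppm.

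Set against each other on the per-length scale, LAMP1 was above every V0 and V1 gene under both lengths, and LAMP2 was above all of them but ATP6V0E1 by union length. The median percentile among all genes was 85.5 for the V-ATPase genes, 67.1 for the cathepsins and 97.6 for the LAMPs. By canonical transcript it was 91.4, 79.9 and 97.2. The cathepsin median lay below that of the pump although their summed level was higher, since CTSL and CTSB held 87.1% of it.

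Genes that work beside these proteins were counted from lists chosen with earlier results of these data known. Of 49 listed genes 48 had a row, 46 averaged at least 10 normalized counts, and the median percentile was 82.2. Of 12 genes listed as other hydrolases, all had at least 10, with mean normalized counts from 363 to 30090.2 and a median percentile of 90.9. The highest of these counts was that of PSAP, which encodes activators of hydrolases. The 8 genes listed as other membrane proteins of the lysosome had a median percentile of 86.7. That list includes NPC2, a soluble protein of the lysosome, whose percentile of 93.4 raises the median. The 5 Ragulator genes, which anchor mTORC1 signalling to the lysosome, had a median percentile of 85.4. The 6 genes of transport to lysosomes had a median percentile of 77.8. The 8 genes listed for V-ATPase assembly were lower, with a median percentile of 61.9 and counts from 129 to 14031. The highest count was that of NCOA7, which binds the pump but is not an established assembly factor, and the next was VMA21 at 4581. Of the cystatins, inhibitors of cysteine cathepsins, 3 of 4 had a row and 2 had at least 10, with a highest count of 22443. The 4 transcription factors of the TFEB family ranged from 0.918 to 3717 normalized counts.

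**Figure D4:**
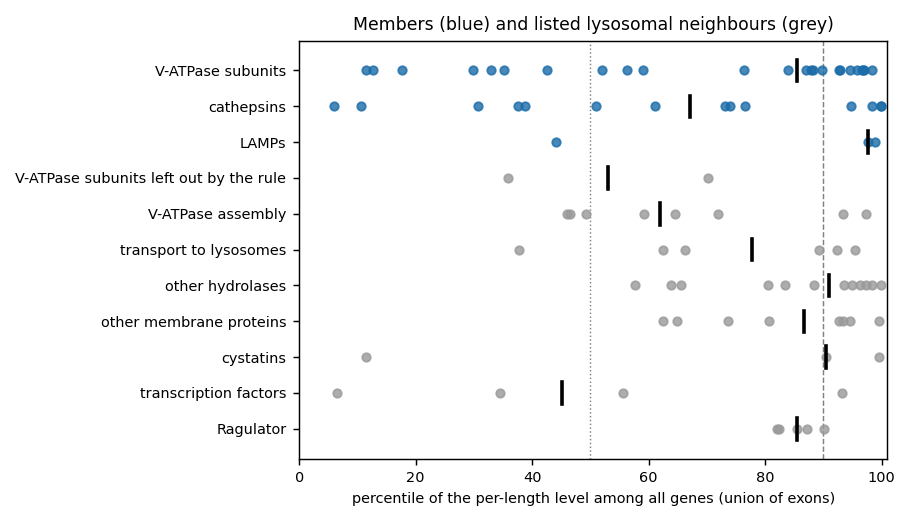
Each point is a gene, placed by the percentile of its per-length level (union of exons) among all 18309 genes, blue for the genes described here and grey for the neighbour lists; black bars mark medians, the dotted line percentile 50 and the dashed line percentile 90. The LAMPs and other hydrolases have medians of 97.6 and 90.9, and the cathepsins spread over nearly the whole axis.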

How the data were processed

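BT-549/tet-WDR5shRNA cells, 3 cultures with vehicle and 3 with DOX, were sequenced after TruSeq stranded mRNA preparation. According to the labels and methods, the authors aligned reads to GRCh38 with STAR and normalized counts with DESeq2; the counter and its strand setting are not given in the sources used here. The time of treatment is from the methods. The labels and methods name different RNA extraction reagents. The deposited table holds 1 row per gene. Its mean normalized count, a signal averaged by the authors over all 6 libraries, was used. The remaining deposited columns are the authors' DOX against vehicle comparison (log2 fold change, standard error, test statistic, p-value, adjusted p-value) and were not used, so no test was run. Values of each library were not analysed here, and no interval for counting error could be given.

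Symbols were matched to GENCODE 44, 17729 directly and 580 through older symbols, and 1483 were not matched; genes with a length held 98.2% of the summed mean counts. Mean counts were divided by length (union of exons) and scaled to sum to 1000000. Alternatives were the longest or canonical transcript, no length, protein-coding genes only, and count minimums of 1 and 50 in place of 10. Transcripts were cut into 50-base words to count those shared with other genes. All members were named, and the members and lists were chosen with earlier results of these data known. Python 3.11.15, pandas 2.3.3, numpy 2.4.6 and matplotlib 3.10.9 were used, and the scaling was tested on simulated data.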

Additional observations from a re-analysis of the deposited data

How the results depend on the processing

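Of 57 recomputed values, 41 stayed near the reported value, 10 moved and 6 changed the leading gene. Near meant within 1.5-fold for a share of the total or a number of genes. For a median percentile or the share of a leading gene it meant within 5 points. The 41 include the leading shares of subunits d, B, C, E and G, which were 97.1% or more under every length. With canonical transcripts the median percentile became 91.4 for the V-ATPase genes and 79.9 for the cathepsins, the cathepsin share 1.21% and the ATP6V0E1 share of subunit e 90.3%. With no length the cathepsin share was 1.09%, their median percentile 74.0, the LAMP share 0.162%, the ATP6V0A1 share of the ATP6V0A genes 54.6% and the ATP6V0E1 share 88.5%. ATP6V0A2 led the ATP6V0A genes with 51.4% by longest transcript, and CTSB led the cathepsins with 51.6% by longest transcript and 48.2% with no length. The moves named so far follow from the lengths used, which are all that differs. The 57 values also include settings in which the set of genes differs. With TCIRG1 counted in subunit a, an alternative chosen after seeing the data, TCIRG1 led with 53.8% by union length, 50.5% by longest and 40.5% by canonical transcript, and with no length ATP6V0A1 led with 39.9%. No paired analysis was possible because the values used are means over all 6 libraries; leaving out replicates and count tests with edgeR or DESeq2 were not run for the same reason. The depth of each library is unknown, so the error of every level is unknown.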
